A study of Homo sapiens with 6 samples.

Results

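The cytochrome P450 genes were followed in Hep3B cells, an established human line derived from a hepatocellular carcinoma, with and without knockout of the transcription factor gene RFX6. The members were all rows of the deposited count table whose name starts with CYP and a digit, which gave 47 of 16720 named rows. RNA was sequenced from 3 libraries labelled sgControl (genotype WT) and 3 labelled sgRFX6 (genotype RFX6 knockout). According to the study's methods, guides were delivered with Cas9 by a lentiviral vector, cells were selected with puromycin, and clones grown from single cells were picked. The knockout columns name guide sg3 and the control columns name no guide. The sources used here do not say how many clones or cultures stand behind the 3 libraries of a group, so p-values measure only the spread between these libraries.

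Cytochrome P450 enzymes hold a haem group and use it to insert oxygen into fats, steroids, vitamins, drugs and toxins. Most sit in the endoplasmic reticulum and take electrons from the reductase POR, and those in mitochondria take them from the ferredoxin FDX1 and its reductase FDXR. In the liver, families CYP1 to CYP3 clear drugs and other foreign compounds, members of CYP4 hydroxylate fatty acids, and several others make or modify cholesterol, bile acids and vitamin D.

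The libraries held between 16730386 and 25070793 counts. At these depths 3 counts, treated here as the floor of detection, correspond to between 0.121 and 0.188 CPM (counts scaled to library size with TMM factors). Floors cover counting error only, because PCR copies of a molecule are counted as separate reads. Libraries of a group differed beyond sampling noise, so each was counted as 1 sample. The deviation of a library from its group mean moved with transcript GC content, and the Spearman correlation across genes ranged between -0.85 for sgRFX6 replicate 3 and 0.72 for sgRFX6 replicate 2. The target RFX6 had 5.64, 5.83 and 7.34 CPM in sgControl and 3.43, 3.71 and 3.50 CPM in sgRFX6, so the groups did not overlap (log2 fold change -0.82, standard error (SE) 0.26, adjusted p = 0.142 by the quasi-likelihood test of edgeR, the test behind each adjusted p given here). The sequenced transcript was therefore still present in the knockout libraries. The study reports that it checked its knockout by quantitative PCR and western blotting, and RNA counts do not measure protein. The defining liver RNAs were low for cells labelled as hepatocellular carcinoma. Albumin (ALB) had 12.9 to 32.1 CPM over the 6 libraries, and alpha-fetoprotein (AFP) had 1.58 to 2.31 CPM in sgControl and 9.98 to 17.2 CPM in sgRFX6. The summed level of 14 hepatocyte markers was 461 to 555 CPM in sgControl and 366 to 404 CPM in sgRFX6, and none of the markers was at the floor. That of 10 intestinal markers, of which CDX1, MUC2, FABP2 and SI have no row, was 1025 to 1948 CPM in sgControl and 1332 to 1667 CPM in sgRFX6. It came mainly from LGALS4, VIL1 and CDH17. Ranges for other cell types were 721 to 1096 CPM against 540 to 842 CPM for 8 biliary markers, 51.4 to 60.9 against 21.4 to 56.4 CPM for 8 fibroblast markers, 74.8 to 162 against 66.2 to 105 CPM for 8 immune markers and 11.7 to 13.7 against 13.4 to 19.8 CPM for 5 endothelial markers. CFTR, CD3E, HBB and KDR were at the floor and CDH5 has no row. Sums can hide changes of single markers. An edgeR adjusted p under 0.05 was found for 3 of 5 tested fibroblast markers, lower in sgRFX6. So it was for 2 of 6 tested intestinal markers, higher in sgRFX6, and of 14 hepatocyte markers for 2 higher and 2 lower. None of the tested biliary, immune or endothelial markers passed, and 3.74% of all tested genes did. The part of these levels in the P450 results was not tested.

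Of the 47 P450 genes, 24 passed the filter on low counts and were tested, 12 were above 3 counts in at least 1 library but were not tested, and 11 had at most 3 counts in every library. Most P450 RNA came from few genes. CYP4F11, which hydroxylates long-chain fatty acids and vitamin K, made up 25.6% to 32.3% of the summed P450 level in sgControl and 23.2% to 24.7% in sgRFX6. With CYP2S1, a P450 found in many epithelia, and CYP4F3, a leukotriene hydroxylase, it made up 56.4% to 61.4% in sgControl and 49.0% to 53.8% in sgRFX6. The summed level of all 47 genes lay between 591 and 737 CPM in sgControl and between 590 and 620 CPM in sgRFX6, and the groups overlapped.

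Per kilobase of the longest annotated transcript, the mean level over all 6 libraries was 53.5 CPM per kb for CYP4F11, 39.5 for CYP2S1, 22.5 for CYP27A1, 18.3 for CYP51A1 and 14.1 for CYP4F3. CYP2B6, CYP3A5, CYP4F12 and CYP24A1 followed with 7.83, 7.79, 7.73 and 6.96 CPM per kb. Several main drug-metabolising enzymes of adult liver were nearly silent, though not CYP2B6, CYP3A5 or CYP2D6, which were tested. CYP3A4, the leading enzyme of drug oxidation, was counted 1 to 4 times per library, CYP2E1, which oxidises ethanol, 1 to 5 times, and CYP2C8 0 to 4 times. CYP1A2 had 1 count in 1 library and CYP2A6 3 counts in 1 library. CYP8B1, which sets the kind of bile acid made, had 1 count in all. CYP4A11 and CYP4A22, fatty acid hydroxylases, CYP4F22 of skin ceramides, CYP26A1, which clears retinoic acid, CYP46A1, which clears cholesterol from brain, and the read-through row CYP3A7-CYP3A51P had at most 2 counts per library. CYP2A7, CYP2F1 and CYP4F8 reached 4, 7 and 6 counts, and CYP2J2, an epoxygenase of arachidonic acid, was counted 5, 5 and 1 times in sgControl and 17, 3 and 8 times in sgRFX6. For these untested genes no difference between the groups was detectable at this depth.

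**Figure D1:**
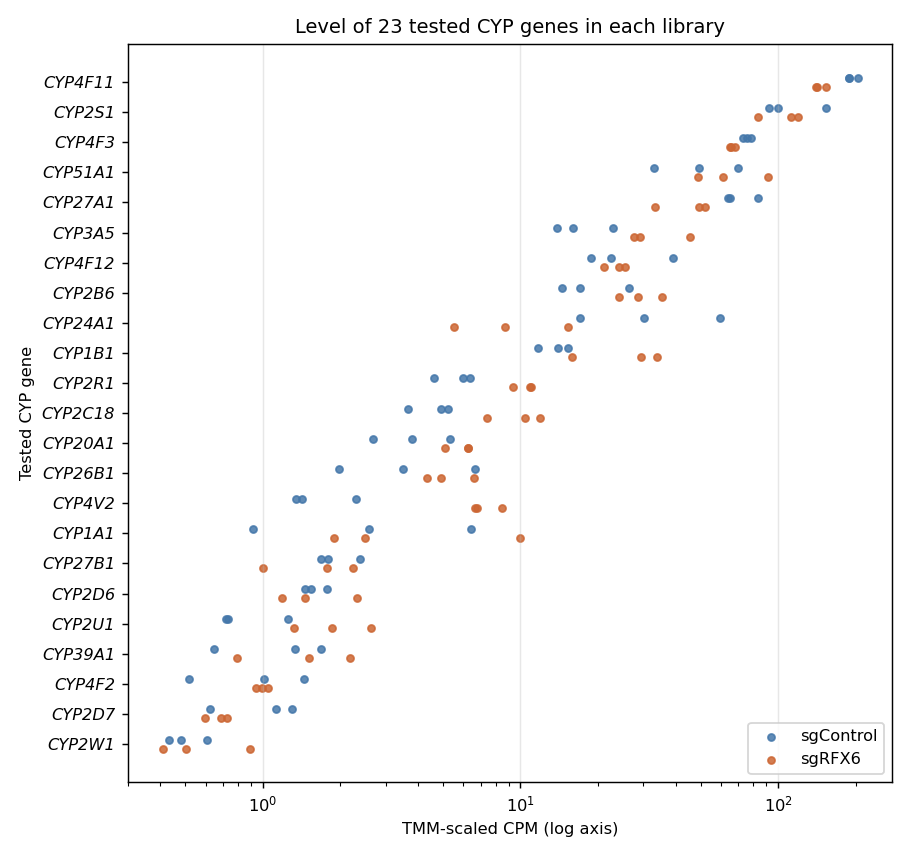
TMM-scaled CPM (log axis) of 23 tested P450 genes, 1 row per gene and 1 point per library, sgControl in blue and sgRFX6 in orange. The genes span from 0.41 CPM for CYP2W1 in sgRFX6 replicate 3 to 203 CPM for CYP4F11 in sgControl replicate 1.

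Between sgRFX6 and sgControl, 1 of the 24 tested P450 genes passed the threshold, CYP4V2, which rose. Over all 12839 genes tested, 3.74% passed it (1.92% higher and 1.81% lower in sgRFX6). Without adjustment, 9 of the 24 (37.5%) had a p under 0.05, against 15.6% of all tested genes, with 6 of the 9 higher (8.62% of all) and 3 lower (6.96% of all) in sgRFX6. The groups did not overlap for 10 of the 24 (6 higher, 4 lower), against 23.1% of all tested genes (12.0% higher, 11.2% lower). The median log2 fold change of the tested P450 genes was 0.34 against 0.02 over all tested genes, and they ranged from -1.85 to 2.10. Of the P450 genes 16 were positive and 8 negative, against 6765 and 6074 of all tested genes. In RNA from bulk cells, fewer cells that express a gene and less RNA per cell cannot be told apart. In 3 libraries against 3, the smallest p of a two-sided exact permutation test is 0.1. Any gene without overlap reaches it by construction, so for the 10 genes it adds nothing to their separation. Other fits passed more P450 genes. After removal of the GC trends 5 passed (11.3% of all tested genes passed there), CYP4V2, CYP2C18, CYP2R1 and CYP3A5, higher in sgRFX6, and CYP27A1, lower. With DESeq2 5 passed (6.97% of all), with limma-voom and sample quality weights 11 (31.1% of all), and after removal of the regional median, the median of the 50 tested genes nearest on the chromosome, 2 (3.05% of all).

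**Figure D2:**
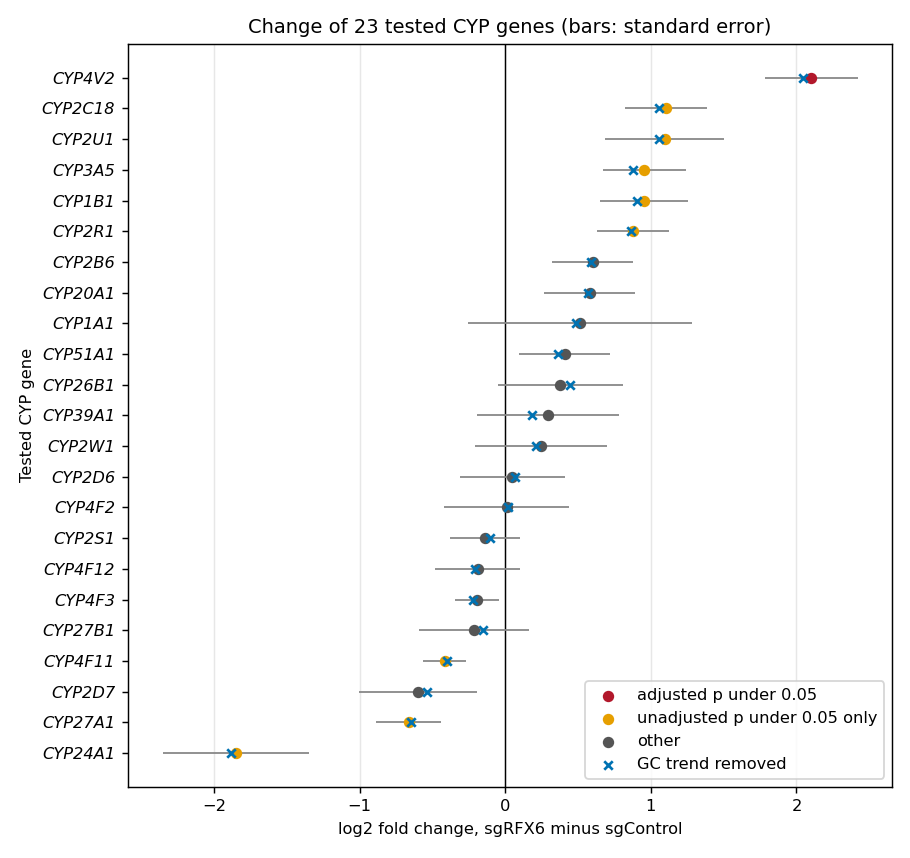
Log2 fold change (sgRFX6 minus sgControl) of 23 tested P450 genes with its standard error, coloured by whether the gene passed the adjusted threshold, had an unadjusted p under 0.05 only, or neither. Crosses give the value with GC trends removed. CYP4V2 lies farthest to the right (2.10) and CYP24A1 farthest to the left (-1.85).

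Among the P450s of fatty acids, 11 members are in the table and 6 were tested. CYP4V2 is a fatty acid hydroxylase of the endoplasmic reticulum whose loss causes a degeneration of the retina. It lies on chromosome 4 of GRCh38 from 186191520 to 186213456 on the forward strand. It was counted 28, 57 and 33 times in sgControl and 134, 108 and 187 times in sgRFX6, which is 1.35, 2.31 and 1.42 CPM against 6.66, 6.79 and 8.49 CPM. Every sgRFX6 library was well above every sgControl library. The means were 1.69 ± 0.533 CPM and 7.31 ± 1.03 CPM (SD, n = 3 each), a 4.30-fold rise (log2 fold change 2.10, SE 0.32, edgeR adjusted p = 0.00883). CYP4V2 passed the threshold in 15 of 16 alternatives, and the exception was the fit without sgControl replicate 3 (edgeR adjusted p = 0.0612, log2 fold change 2.02). The median over the 50 tested genes nearest to it was 0.06 on the log2 scale. SORBS2, the only other tested gene within 250 kb, lay at a log2 fold change of 1.24 (edgeR adjusted p = 0.119).

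CYP2U1, which hydroxylates fatty acids such as arachidonic acid, had 0.72, 1.26 and 0.73 CPM in sgControl and 2.63, 1.32 and 1.86 CPM in sgRFX6. The groups did not overlap, but sgRFX6 replicate 2 was close to sgControl replicate 2. Its log2 fold change was 1.10 (SE 0.41, edgeR adjusted p = 0.223). The CYP4F genes form a cluster on chromosome 19 from 15508493 to 15934867, where 6 members lie and 4 were tested. CYP4F11 had 203, 189 and 188 CPM in sgControl and 141, 140 and 153 CPM in sgRFX6. Each sgRFX6 library lay below each sgControl library, with little spread inside a group (193 ± 8.79 against 145 ± 7.05 CPM, SD, n = 3 each). For CYP4F11 the log2 fold change was -0.42 (SE 0.15, edgeR adjusted p = 0.195). CYP4F3 had 78.7, 73.0 and 75.8 CPM in sgControl and 65.8, 65.2 and 67.8 CPM in sgRFX6, also without overlap (log2 fold change -0.19, edgeR adjusted p = 0.625). CYP4F12 and CYP4F2 overlapped between the groups, with log2 fold changes of -0.19 and 0.01 (edgeR adjusted p = 0.850 and 0.994). The sign turned for CYP4F12 without sgControl replicate 2 (0.19) and for CYP4F2 without sgControl replicate 3 (-0.27). These genes are similar in sequence and may share reads, so their single values are uncertain.

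Promoters, taken as 250 bases before to 50 bases after the start that RefSeq gives on GRCh38.p14, were available for 34 of the 47 members and 16 of the 24 tested. Both strands were searched for GTTGCC, an arm of the X-box that RFX proteins bind, for the nuclear receptor hexamers AGGTCA and AGTTCA, the latter common in vitamin D receptor elements, and for TNGCGTG, the element of the aryl hydrocarbon receptor. A promoter is shown for CYP4V2, the member past the threshold, for CYP2U1 and CYP4F11, whose windows hold GTTGCC, and for CYP3A5, whose window holds both hexamers. The genes shown all had an unadjusted p under 0.05 with edgeR. Not shown are CYP2B6, CYP39A1 and CYP4F3, which were tested, hold GTTGCC and had no such p. Each printed promoter reads 5′ to 3′ on the strand of its gene, and capitals mark the matches, which did not overlap one another in these windows. The CYP4V2 window is chr4:186191317-186191616 on the forward strand, that of CYP2U1 chr4:107931299-107931598 on the forward strand, that of CYP4F11 chr19:15934818-15935117 on the reverse strand, and that of CYP3A5 chr7:99679947-99680246 on the reverse strand.
CYP4V2: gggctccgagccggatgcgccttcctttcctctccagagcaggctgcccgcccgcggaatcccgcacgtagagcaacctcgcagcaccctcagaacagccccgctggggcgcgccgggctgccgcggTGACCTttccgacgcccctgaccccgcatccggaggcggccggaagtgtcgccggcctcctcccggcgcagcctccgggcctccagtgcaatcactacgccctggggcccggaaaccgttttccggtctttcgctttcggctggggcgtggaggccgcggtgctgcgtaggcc
CYP2U1: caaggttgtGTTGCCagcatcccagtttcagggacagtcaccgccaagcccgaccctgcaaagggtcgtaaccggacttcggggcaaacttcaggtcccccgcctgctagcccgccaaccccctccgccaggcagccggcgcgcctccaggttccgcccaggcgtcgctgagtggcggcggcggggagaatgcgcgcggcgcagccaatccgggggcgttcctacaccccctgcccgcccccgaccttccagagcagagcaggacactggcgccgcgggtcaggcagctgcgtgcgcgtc
CYP4F11: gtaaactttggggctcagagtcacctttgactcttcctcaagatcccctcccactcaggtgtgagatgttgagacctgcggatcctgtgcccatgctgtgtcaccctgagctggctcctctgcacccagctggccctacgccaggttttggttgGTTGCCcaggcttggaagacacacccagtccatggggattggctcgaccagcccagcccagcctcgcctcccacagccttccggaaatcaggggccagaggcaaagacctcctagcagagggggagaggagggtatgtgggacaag
CYP3A5: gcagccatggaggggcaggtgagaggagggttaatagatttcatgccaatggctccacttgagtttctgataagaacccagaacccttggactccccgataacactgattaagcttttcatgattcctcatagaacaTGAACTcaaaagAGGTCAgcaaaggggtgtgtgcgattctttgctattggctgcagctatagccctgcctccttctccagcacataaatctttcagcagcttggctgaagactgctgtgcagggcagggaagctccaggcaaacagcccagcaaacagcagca
In CYP4V2 the match was AGGTCA on the opposite strand at -123 to -118 from the start. In CYP2U1 GTTGCC lay at -241 to -236 and in CYP4F11 at -96 to -91. In CYP3A5 AGTTCA (opposite strand, -113 to -108) and AGGTCA (-101 to -96) faced away from each other with 6 bases between them. Such an everted repeat is a form to which the xenobiotic receptor PXR is known to bind, and the CYP3A4 window holds the same pair with the same distance, at -169 to -164 and -157 to -152. GTTGCC was present in 8 of the 34 member promoters, against 12.2% of 27305 promoters of the same length. Of the 16 tested members with a promoter it was in 5, CYP2B6, CYP2U1, CYP39A1, CYP4F11 and CYP4F3. Among the others, CYP2A6 and CYP2A7 hold it at the same position (-247 to -242). AGGTCA was in 12 of the 34 (13.9% of all promoters), AGTTCA in 3 (10.5% of all) and TNGCGTG in 1 (5.51% of all). CYP3A7 and the read-through row CYP3A7-CYP3A51P have the same window, so that window and its AGGTCA match are counted for both. A match describes letters and not a bound site.

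Among the drug-oxidising P450s of families 2 and 3, 12 members are in the table and 5 were tested. All 5 had a positive log2 fold change, from 0.05 to 1.11, as had 6765 of the 12839 genes tested. None passed the threshold with edgeR, and 2 had an unadjusted p under 0.05 (15.6% of all tested genes had). With DESeq2 2 passed (6.97% of all) and with limma-voom 4 (31.1% of all). The CYP3A cluster lies on chromosome 7 from 99648194 to 99784265. Of its 4 members, CYP3A5, an enzyme of drug and steroid oxidation that many adults lack, was tested. CYP3A5 had 16.0, 22.9 and 13.8 CPM in sgControl and 27.6, 29.2 and 45.6 CPM in sgRFX6. All sgRFX6 libraries were higher, replicate 3 the most. The log2 fold change was 0.95 (1.94-fold, SE 0.29, edgeR adjusted p = 0.125), and it was 0.88 (edgeR adjusted p = 0.0487) with GC trends removed. The edgeR adjusted p-value was 0.194 with the regional median removed and between 0.0949 and 0.397 with 1 library left out. CYP3A7, the fetal member of the cluster, was counted 2, 9 and 4 times in sgControl and 9, 1 and 10 times in sgRFX6 and was not tested.

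**Figure D3:**
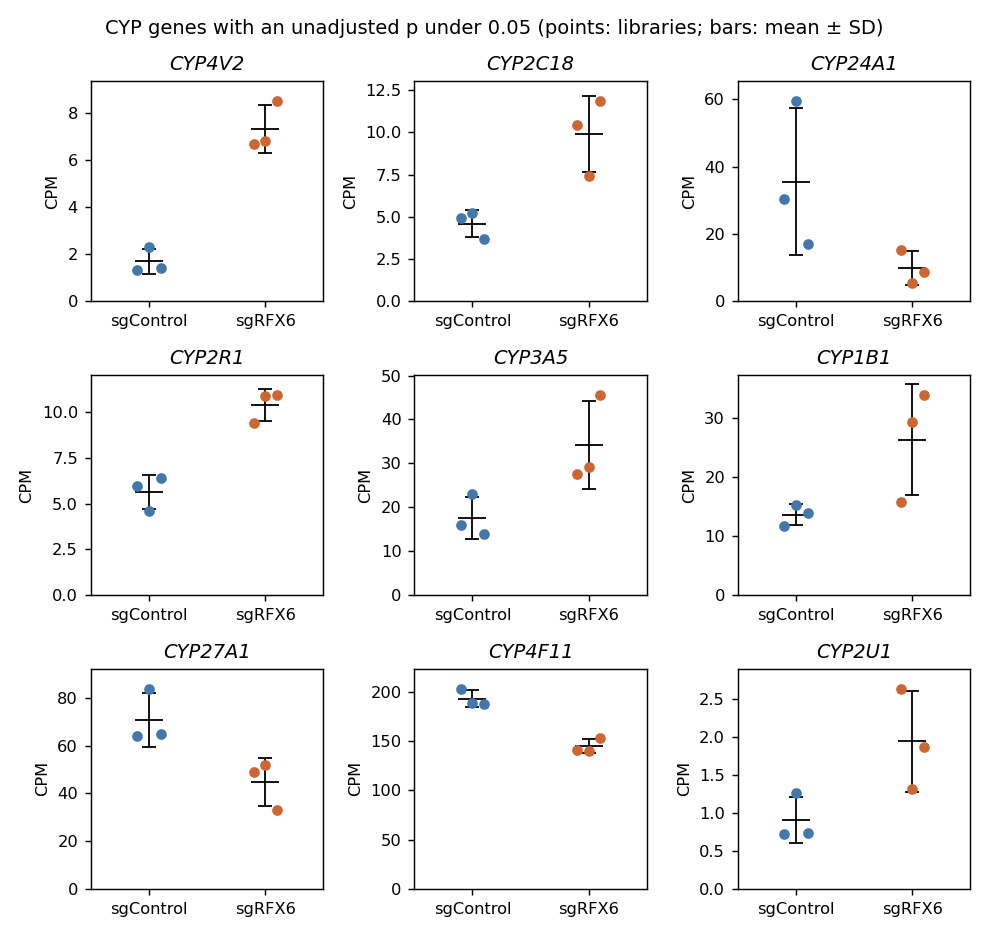
TMM-scaled CPM of the 9 P450 genes with an unadjusted p under 0.05, 1 panel per gene with its own axis from 0. Points are libraries and bars are mean ± SD (n = 3). In every panel the groups do not overlap, with 1.69 against 7.31 CPM on average for CYP4V2 and 193 against 145 CPM for CYP4F11.

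The CYP2C cluster lies on chromosome 10 from 94683621 to 95069497. CYP2C18, a member more typical of skin and gut than of liver, had 4.92, 5.22 and 3.67 CPM in sgControl and 10.4, 7.42 and 11.9 CPM in sgRFX6. The groups did not overlap, and the log2 fold change was 1.11 (2.15-fold, SE 0.28, edgeR adjusted p = 0.0762). The edgeR adjusted p-value of CYP2C18 was 0.0201 with GC trends removed and 0.0478 with the regional median removed. With 1 library left out it lay between 0.0789 and 0.290. CYP2C19 was counted 6, 0 and 6 times in sgRFX6 and not at all in sgControl. Members of this cluster resemble each other, so their counts may be shared. On chromosome 19, CYP2B6, which oxidises cyclophosphamide and efavirenz, had 14.5, 26.4 and 17.0 CPM in sgControl and 35.3, 28.5 and 24.2 CPM in sgRFX6, with overlap (log2 fold change 0.60, edgeR adjusted p = 0.356). Its neighbour CYP2S1 had 92.2, 154 and 99.5 CPM in sgControl and 119, 112 and 83.2 CPM in sgRFX6, with overlap (log2 fold change -0.14, edgeR adjusted p = 0.868). Without sgControl replicate 2 the sign of CYP2S1 turned (0.12). CYP2D6, which clears many antidepressants and opioids, had 1.19 to 2.33 CPM over the 6 libraries and shares sequence with the pseudogene CYP2D7, which had 0.60 to 1.30 CPM.

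In family 1, which oxidises planar aromatic compounds and oestrogens, CYP1B1 had 11.7, 15.2 and 14.0 CPM in sgControl and 15.8, 29.4 and 33.9 CPM in sgRFX6. The groups did not overlap, although sgRFX6 replicate 1 was only just above sgControl replicate 2. The log2 fold change of CYP1B1 was 0.95 (1.93-fold, SE 0.30, edgeR adjusted p = 0.150), and with limma-voom it was 0.45. CYP1A1 varied more inside the groups than between them, with 0.92, 6.44 and 2.59 CPM in sgControl and 1.89, 9.99 and 2.50 CPM in sgRFX6 (log2 fold change 0.51, SE 0.77, edgeR adjusted p = 0.845).

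Of the P450s of vitamin D and retinoids, 6 are in the table and 4 were tested. None passed the threshold with edgeR, and 2 had an unadjusted p under 0.05 (15.6% of all tested genes had). DESeq2 (6.97% of all passed) and limma-voom (31.1% of all) each passed 2. These were CYP2R1 with both, CYP24A1 with DESeq2 and CYP26B1 with limma-voom. CYP24A1, the enzyme that degrades active vitamin D, had the most negative log2 fold change of the tested members. It lies on chromosome 20 from 54153449 to 54173973. It had 30.3, 59.5 and 17.0 CPM in sgControl and 15.3, 5.53 and 8.72 CPM in sgRFX6. The highest sgRFX6 library was just below the lowest sgControl library, and the sgControl libraries differed widely (35.6 ± 21.7 against 9.85 ± 4.98 CPM, SD, n = 3 each). The log2 fold change was -1.85 (SE 0.50, edgeR adjusted p = 0.0922). Leaving out sgControl replicate 2 moved it to -1.26, and limma-voom with sample quality weights gave -0.77. CYP2R1, which starts the activation of vitamin D in the liver, stood the other way, with 5.98, 4.62 and 6.39 CPM in sgControl and 9.39, 10.9 and 10.9 CPM in sgRFX6. The groups did not overlap (log2 fold change 0.88, 1.84-fold, SE 0.25, edgeR adjusted p = 0.101). The median over the 50 tested genes nearest to CYP2R1 on chromosome 11 was 0.32 on the log2 scale, and with that regional median removed its adjusted p-value was 0.416. CYP27B1, which completes the activation of vitamin D, had 1.01 to 2.39 CPM with overlap (edgeR adjusted p = 0.869), and the vitamin D receptor VDR had 15.7 to 23.6 CPM with a log2 fold change of 0.06 (edgeR adjusted p = 0.950). CYP26B1, which clears retinoic acid, had 1.98 to 6.68 CPM with overlap (edgeR adjusted p = 0.772). CYP27C1, a desaturase of vitamin A, was counted 8, 27 and 7 times in sgControl and 1, 0 and 2 times in sgRFX6. CYP27C1 did not pass the filter of the main fit and is named after its values were seen. In the fit without a filter, where every member was tested, CYP4V2 alone passed. Against the floor of 3 counts per library the mean of CYP27C1 was at least 3.14-fold lower in sgRFX6. That mean was raised by the 27 counts of sgControl replicate 2. In sgControl replicate 3 it had 0.302 CPM, not far above the highest sgRFX6 floor of 0.188 CPM.

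Of the P450s of sterols and bile acids, 5 are in the table and 3 were tested. None passed with edgeR or DESeq2. An unadjusted p under 0.05 was found for 1 (15.6% of all tested genes), and 1 passed with limma-voom (31.1% of all). CYP27A1, the mitochondrial enzyme that hydroxylates the side chain of cholesterol on the way to bile acids, had 63.8, 83.8 and 64.8 CPM in sgControl and 49.1, 52.0 and 33.2 CPM in sgRFX6. The groups did not overlap, and sgRFX6 was lower. The log2 fold change was -0.66 (1.58-fold lower, SE 0.22, edgeR adjusted p = 0.173). The edgeR adjusted p-value was 0.0108 with GC trends removed and 0.381 with the regional median removed. With 1 library left out it lay between 0.156 and 0.361. Of the 9 other tested genes within 250 kb of CYP27A1, 8 had a negative log2 fold change and none passed the threshold (median -0.16). CYP51A1, a demethylase of cholesterol synthesis, had 69.5, 33.1 and 49.2 CPM in sgControl and 61.2, 49.0 and 91.0 CPM in sgRFX6, with overlap (log2 fold change 0.41, edgeR adjusted p = 0.618). The median of the 50 tested genes nearest to CYP51A1 was 0.38. CYP39A1, which hydroxylates an oxysterol, had 0.65 to 2.18 CPM with overlap (edgeR adjusted p = 0.863). The steroid hormone enzymes were near the floor. CYP11A1, which makes pregnenolone from cholesterol, and CYP21A2, which acts towards cortisol, had at most 1 count in each library. CYP17A1, which acts towards androgens, had at most 9. Aromatase, CYP19A1, was counted 12, 8 and 9 times in sgControl and 9, 8 and 15 times in sgRFX6. The orphan enzymes CYP20A1 and CYP2W1 were tested and overlapped between the groups (edgeR adjusted p = 0.440 and 0.881).

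Genes that serve the P450 enzymes were taken from fixed lists. Of 9 redox partners, all tested, none passed the threshold with edgeR. With DESeq2 1 passed (6.97% of all tested genes) and with limma-voom 5 (31.1% of all). An unadjusted p under 0.05 was found for 3 (33.3%, against 15.6% of all). The reductase POR had 231, 302 and 250 CPM in sgControl and 409, 421 and 243 CPM in sgRFX6, high in 2 sgRFX6 libraries and within the sgControl range in replicate 3 (log2 fold change 0.45, edgeR adjusted p = 0.417). With GC trends removed, POR had an adjusted p-value of 0.0359. The median over its nearest 50 tested genes was 0.36 on the log2 scale, and with that regional median removed its edgeR adjusted p-value was 0.961. Cytochrome b5 (CYB5A), a second electron donor, had 6.84, 9.07 and 10.3 CPM in sgControl and 15.5, 16.7 and 12.0 CPM in sgRFX6, without overlap (log2 fold change 0.76, edgeR adjusted p = 0.173). CYB5R3, FDX1 and FDXR overlapped between the groups, with adjusted p-values of 0.647, 0.410 and 0.899 from edgeR. The haem-binding partner PGRMC1 had 95.7, 86.0 and 87.4 CPM in sgControl and 137, 136 and 181 CPM in sgRFX6, without overlap (log2 fold change 0.75, edgeR adjusted p = 0.0530), where the median over the nearest 50 tested genes was 0.72. Its paralog PGRMC2 lay the other way, with 58.7, 78.7 and 54.0 CPM in sgControl and 44.8, 36.0 and 45.3 CPM in sgRFX6 (log2 fold change -0.60, edgeR adjusted p = 0.185).

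Of 9 genes of haem synthesis and breakdown, all tested, 1 passed the threshold with edgeR (3.74% of all tested genes passed). With DESeq2 1 passed (6.97% of all) and with limma-voom 2 (31.1% of all). The gene past the edgeR threshold was HMOX1, which encodes the haem-degrading enzyme haem oxygenase. HMOX1 rose from 215, 138 and 182 CPM in sgControl to 455, 438 and 403 CPM in sgRFX6 (log2 fold change 1.28, SE 0.20, edgeR adjusted p = 0.00948), and it passed in all 16 alternatives. ALAS1, the rate-limiting enzyme of haem synthesis in liver, overlapped between the groups (edgeR adjusted p = 0.556). Of 22 regulators of P450 genes, 19 were tested and 1 passed the threshold with edgeR (3.74% of all tested genes passed). With DESeq2 2 passed (6.97% of all) and with limma-voom 7 (31.1% of all). NR1H4, which encodes the bile acid receptor FXR, was counted 4, 5 and 3 times in sgControl and 22, 12 and 22 times in sgRFX6 (log2 fold change 2.41, SE 0.44, edgeR adjusted p = 0.0203). Its levels were a few counts, and its sgControl counts were below the filter's minimum count of 10. NR1H4 thus entered the test only through sgRFX6, the group where it is high, so its adjusted p-value is not independent evidence. With a filter of at least 1 CPM in 3 libraries it was not tested. NR1H4 passed in 3 of the 6 fits that left out a library, with adjusted p-values of up to 0.105. NR1I2, which encodes PXR, had 3.47, 7.86 and 4.23 CPM in sgControl and 11.7, 7.67 and 9.08 CPM in sgRFX6, with overlap at 1 library (log2 fold change 0.87, edgeR adjusted p = 0.270). The constitutive androstane receptor gene NR1I3 had 0.15 to 0.49 CPM and was not tested. The aryl hydrocarbon receptor AHR, RXRA and HNF4A had adjusted p-values of 0.718, 0.972 and 0.494 from edgeR. ARNT, the partner of AHR, had 85.6, 113 and 79.7 CPM in sgControl and 70.4, 56.0 and 63.3 CPM in sgRFX6, without overlap (log2 fold change -0.55, edgeR adjusted p = 0.188). FOXA1, a pioneer factor of liver genes, had 6.70, 6.48 and 7.86 CPM in sgControl and 3.03, 2.95 and 3.91 CPM in sgRFX6, also without overlap (log2 fold change -1.08, edgeR adjusted p = 0.0622). Of 11 genes of bile acid synthesis outside the P450 family, 10 are in the table and 9 were tested, and none passed the threshold with edgeR. With DESeq2 2 passed (6.97% of all tested genes) and with limma-voom 5 (31.1% of all). AKR1C4, a reductase of bile acid precursors, and AMACR, a racemase of their side chain, had log2 fold changes of 1.12 and 0.85, and SLC27A2, an acyl-CoA synthetase, of -1.28, each without overlap (edgeR adjusted p = 0.0622, 0.0975 and 0.0953). The P450 enzymes that do not carry a CYP symbol, TBXAS1 and PTGIS, had adjusted p-values of 0.810 and 0.940 from edgeR.

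**Figure D4:**
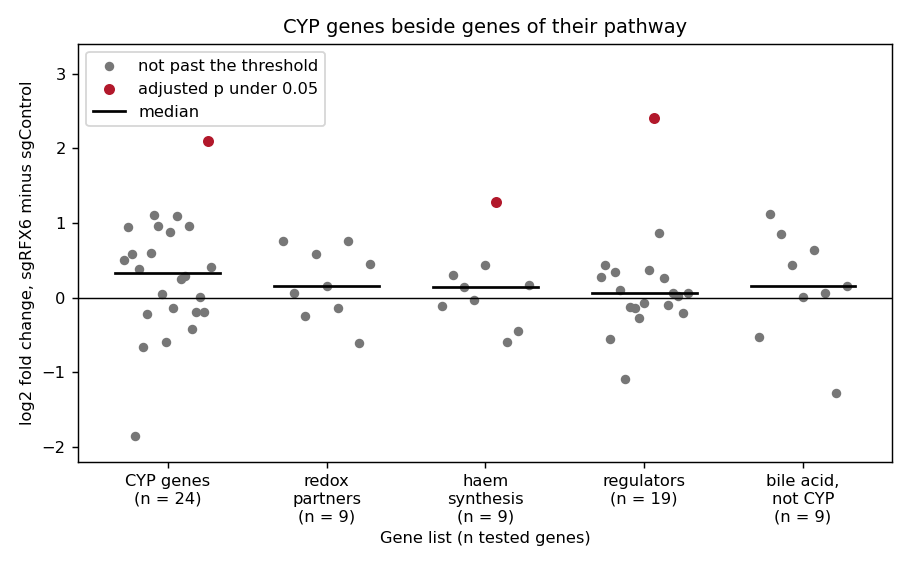
Log2 fold change (sgRFX6 minus sgControl) of each tested P450 gene beside those of redox partners, haem synthesis, regulators and bile acid genes outside the family, with the number tested under each list. Lines are medians, and the genes past the threshold, in red, are CYP4V2, HMOX1 and NR1H4. NR1H4 passed the filter on low counts only through sgRFX6.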

How the data were processed

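RNA was measured by sequencing in 6 libraries of Hep3B cells, 3 labelled sgControl and 3 labelled sgRFX6. The authors deposited a table of raw counts per gene or assembled transcript with 16721 rows, 1 of them without a gene name, which held at most 9.17e-05% of a library and was left out. The builds GRCh38 and hg38 come from the submitters' processing notes. The aligner, the counting program and the annotation are not given in the sources used here. Columns named cas were taken as sgControl, the only control group.

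Counts were filtered with filterByExpr (minimum count 10, minimum total 15), scaled by TMM and compared with edgeR 4.0.16 in R 4.3.3. The quasi-likelihood test had no covariates, standard errors were computed from each gene's log2 fold change and its F statistic, and Benjamini-Hochberg adjustment ran over 12839 genes with a threshold of 0.05. The test was also run on simulated counts with the same dispersion for all genes and no GC trends. That check therefore does not cover the library differences seen here. GENCODE release 29 (GRCh38) gave positions, transcript lengths and GC content, all 47 members matched, and 95.1% of tested genes had a GC value. Promoter sequences are those of RefSeq on GRCh38.p14.

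The members and gene lists were chosen with earlier results of these data known. The members named are those with an unadjusted p under 0.05, the 10 highest by mean CPM, and tested members of their genomic clusters (gaps of at most 500 kb). The values of 1 tested member are not reported here, although it stays in the counts. Members outside this rule are named after their values were seen. Alternatives were DESeq2 1.42.0, limma-voom 3.58.1 with sample quality weights, RLE factors or library size alone, other filters, a replicate block, each library left out, and removal of each library's trend with GC content (lowess, span 0.3, prior count 2). Removal of regional medians and a GC correction with the block were added after the data were seen.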

Additional observations from a re-analysis of the deposited data

How the results depend on the processing

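The direction of CYP4V2, the member that passed the threshold, was the same under all 16 alternatives. The count of P450 genes past the threshold was 5 with DESeq2 and 11 with limma-voom and sample quality weights, against 1 with edgeR. It was 5 with GC trends removed, 3 with GC trends removed and the replicate block, and 2 with the regional median removed. With 1 library left out it lay between 0 and 1. Over all genes the count was 895 with DESeq2, 3998 with limma-voom and 1380 with GC trends removed, against 480 with edgeR. It was 648 with the replicate block, 661 with GC trends removed and the block, and 372 with the regional median removed. With a filter of at least 1 CPM in 3 libraries it was 449, and with 1 library left out it lay between 212 and 718. For the lists of partners and regulators, 48 genes were tested and 2 passed with edgeR (3.74% of all tested genes passed). With DESeq2 6 passed (6.97% of all), with limma-voom 21 (31.1% of all) and with GC trends removed 9 (11.3% of all). The count was 1 with a filter of at least 1 CPM in 3 libraries, and between 1 and 6 with 1 library left out. The sign turned with limma-voom for CYP2S1 (0.22) and CYP4F12 (0.17). With 1 library left out, the log2 fold change lay between -0.28 and 0.12 for CYP2S1, between -0.39 and 0.19 for CYP4F12 and between -0.27 and 0.37 for CYP4F2. The cause was not tested. CYP4F11 made up 27.1% of the summed P450 level per kb of transcript and 26.9% without length scaling. Over the 16 named P450 genes and these alternatives, 226 values kept their direction and side of the threshold, 20 newly passed it, 1 no longer passed it and 7 turned sign.

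With the replicate number as a block, 2 P450 genes passed the threshold, CYP4V2 and CYP24A1 (for CYP24A1 adjusted p = 0.00318 from edgeR). Over all genes 648 passed with the block, against 480 without it. Deviations of same-numbered libraries from their group means correlated at -0.41, 0.17 and -0.09 for replicates 1, 2 and 3. The best correlation was that of sgControl replicate 1 with sgRFX6 replicate 3 (0.57). The deviations of these 2 libraries also moved with GC content in the same direction (-0.57 and -0.85). The correlations therefore cannot decide whether the numbers pair the libraries.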
